A study of Apostichopus japonicus with 9 samples.

Results

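The microRNAs (miRNAs) that differed in the sea cucumber Apostichopus japonicus between intestine after 6 h of heat stress at 26 °C and control intestine are described here. They are all miRNA names that the authors listed for this comparison, 156 as higher and 119 as lower after heat, of 409 different names listed in the series. The heat group had 3 samples (6h1 to 6h3) and the control group, labelled normal, had 3 (C1 to C3), from animals of 100 to 120 g, with 1 small RNA library each. The labels do not say whether each sample came from its own animal. No genotype, age, control temperature or control sampling time was given in the sources used here, so warm water and time held cannot be told apart. The deposited table holds 1 value per group, so levels are the authors' means with no SD, and no test over samples could be run.

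A miRNA is a short RNA that guides an Argonaute protein to messenger RNAs that pair with its seed, and so lowers their stability or translation. Families such as let-7, miR-10, miR-71 and miR-375 are shared by many bilaterian animals, and the arm of the hairpin that a mature miRNA comes from is written -5p or -3p. Sea cucumbers are echinoderms whose gut shrinks and stops feeding in warm summer water, a dormancy called aestivation. Most names in the table were coined in other species. They tell which database entry the reads resembled, and the sea cucumber need not have that gene.

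Most tested miRNAs were listed. The ratios of q-values to p-values in the authors' deposited table show that 403 miRNAs were tested, so 68.2% of those tested were listed, 38.7% as higher and 29.5% as lower. No log2 ratio in the authors' deposited table was closer to 0 than 1.02. At least 92 of the unlisted miRNAs had a smaller p-value than the largest one listed. The largest q-value in the authors' deposited table was 2.9e-158. These q-values rest on reads pooled over samples and carry no spread between samples. The lowest count in a higher group was 1098 reads, for miR-1386 at 6 h, with an exact 95% Poisson interval of 1034 to 1165 reads that covers counting error only.

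Levels are in RPM (reads per mega, M, of library reads), as the authors' mean of 3 libraries. Listed miRNAs summed to 23863 RPM at 6 h, at most 2.39% of the reads of an average library, against 150823 RPM in control, at most 15.1%. One miRNA made most of that gap: miR-10c-5p held 84.7% of the listed control level. Without it the listed miRNAs summed to 23765 RPM at 6 h and 23067 RPM in control. In all these sums, reads shared by several names, such as miR-375 and miR-375-3p, entered under each name. Reads were found in both groups for 67 miRNAs, at 6 h alone for 109 and in control alone for 99. In bulk tissue, fewer cells of a type and less RNA per cell cannot be told apart.

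**Figure D1:**
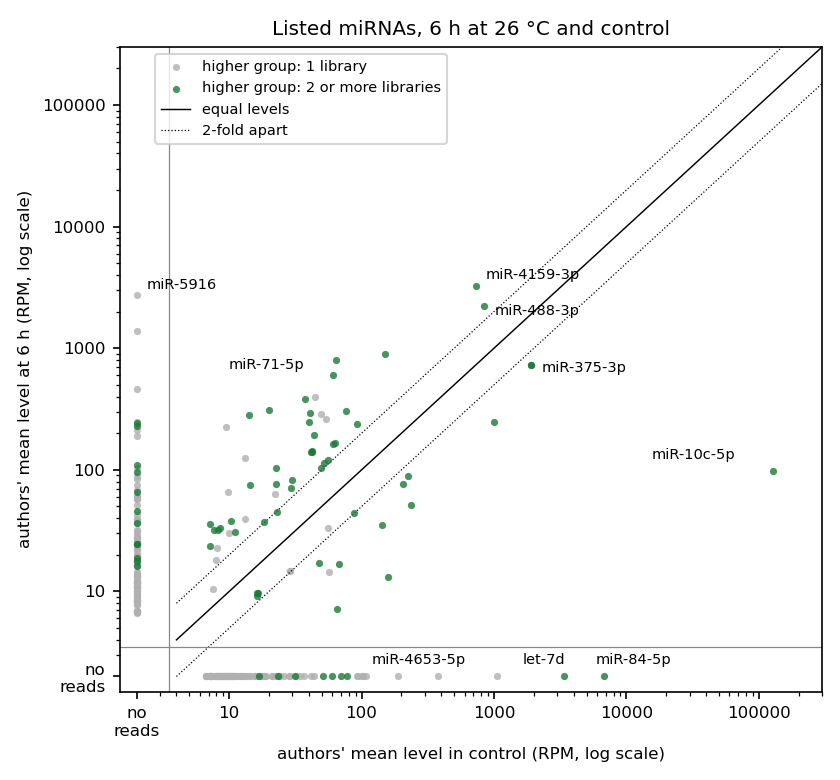
Authors' mean level of each listed miRNA at 6 h (vertical axis) against control (horizontal axis), in RPM on log scales, with miRNAs without reads in a group drawn in the strip at the axis. Green points came from at least 2 libraries in their higher group and grey points from 1. miR-10c-5p lies far to the right, at 97.7 RPM at 6 h and 127756 RPM in control.

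How many libraries stood behind a group value could be read in part from the deposited columns. Where all reads of a miRNA came from 1 library, pooled count over summed RPM gives back that library's size, and such ratios clustered at 54.4, 69.3 and 96.9 M reads at 6 h and at 91.6, 109 and 144.9 M reads in control. These totals are what the columns imply. Which reads they count was not given, they are large for small RNA libraries, and every level per library below rests on them. The libraries are called by these totals, since which labelled sample each one is was not given. At 6 h, 119 of the 176 miRNAs with reads (67.6%) were read in 1 library alone, and in control 117 of 166 (70.5%). These miRNAs were unevenly placed. At 6 h, 58 were in the 54.4 M library, 48 in the 69.3 M library and 13 in the 96.9 M library. In control, 74 were in the 91.6 M library, 12 in the 109 M library and 31 in the 144.9 M library. The lowest level of such a library was 20.01 RPM, so a group shown at 0 may hold up to about 20 RPM in each library. Of the 236 group values from 1 library, 123 (52.1%) had less than 40 RPM in that library, within 2-fold of the lowest level listed.

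**Figure D2:**
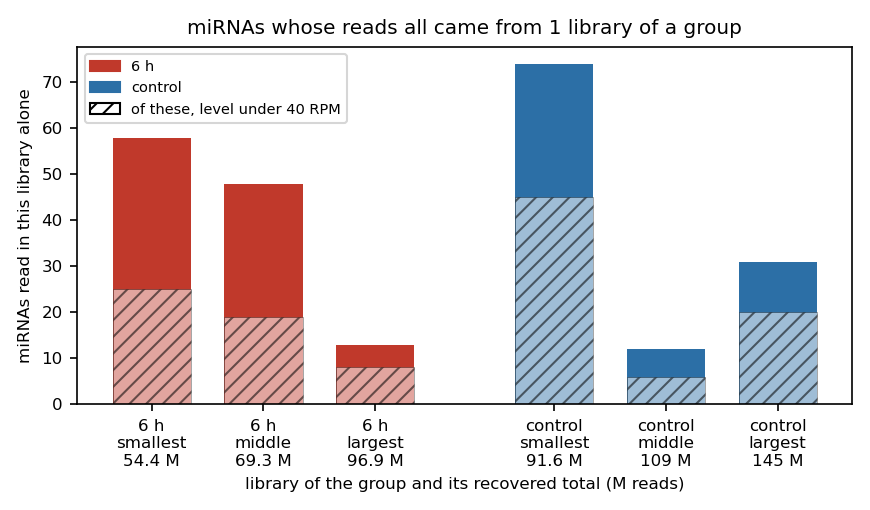
Number of listed miRNAs whose reads in a group all came from 1 library, for the 3 libraries at 6 h (red) and the 3 control libraries (blue), ordered by their recovered totals in M reads. Hatching marks those whose level in that library was under 40 RPM, for example 25 of 58 in the 54.4 M library at 6 h and 45 of 74 in the 91.6 M library in control.

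For 109 of the 156 higher miRNAs all reads at 6 h came from 1 library, and for 94 of the 119 lower miRNAs all control reads did. A stricter call asked for a 2-fold difference after every library that could lie below 20 RPM was set against it. By that call 52 miRNAs were higher and 29 lower, 18.9% and 10.5% of the listed miRNAs (29.5% in either direction), and 28 higher and 18 lower of these came from at least 2 libraries on their higher side. When reads came from 2 or more libraries, count and mean together bound the level of each library. With the library holding the most left out and the others at their lowest allowed level, 6 miRNAs still met the stricter call. They were miR-4488, miR-2a and miR-5126, higher at 6 h, and miR-10c-5p, miR-84-5p and let-7d, lower. With the others at their highest allowed level it was 23 higher and 12 lower. The same bounds were used to ask how far libraries of the groups must lie apart. Of 35 higher miRNAs with reads in 2 or more libraries at 6 h and some in control, 7 must have 2 of the 6 h libraries above every control library, and 24 must have 1. Of the 16 corresponding lower miRNAs, 3 must have 2 control libraries above every 6 h library, and 9 must have 1.

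The largest difference among miRNAs with reads in both groups was that of miR-10c-5p, a name of the miR-10 family, whose genes lie in Hox clusters. It had 97.7 RPM at 6 h and 127756 RPM in control, 1307-fold lower. The 144.9 M control library held 185237 to 250184 RPM of it, at least 1 more control library held 79609 RPM or more, and no 6 h library can have held more than 231 RPM. The control libraries were thus uneven, but 2 or more of them lay far above all 6 h libraries.

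Names of the let-7 family, which times developmental transitions in nematodes and other animals, were split in direction as deposited. The let-7 names were 6 higher and 7 lower, of which 3 and 2 passed the stricter call. Among all listed miRNAs 56.7% were higher, and 29.5% passed that call. miR-84-5p, a nematode let-7 relative, had no reads at 6 h against 6756 RPM in control, at least 338-fold lower, with 9819 to 13246 RPM in the 144.9 M control library. let-7d had no reads at 6 h against 3375 RPM in control, and 97.4% or more of that was in the 144.9 M control library. The same library held 324 to 373 RPM of let-7j, which had 13.1 RPM at 6 h, all in the 96.9 M library, against a mean of 158 RPM in control. In the other direction let-7e stood at 240 RPM at 6 h against 93.1 RPM in control, 2.58-fold higher, and let-7a-5p and let-7b-5p, whose counts agreed within 15%, at 165 and 166 RPM at 6 h against 60.7 and 62.9 RPM in control. The authors' log2 ratios of pooled reads were shifted so that the median of listed miRNAs with reads in both groups is 0 (median scaling). That median holds listed miRNAs only, 47 higher and 20 lower, so it had to fall on a higher name and turn some higher names lower. let-7e was that median and so came to 0, let-7a-5p came to 0.057 and let-7b-5p to 0.021. The higher call of these 3 names thus depends on the scaling chosen, and median scaling cannot tell which scaling is right. The 96.9 M library held at least 269 RPM of let-7e, and no control library can have held more than 223.4 RPM. The lower -3p names let-7c-3p, let-7c-2-3p and let-7d-3p, which share reads, had 9.21 to 9.79 RPM at 6 h against 16.2 to 16.5 RPM in control, under 2-fold on the means. let-7-3p and let-7b-3p were read in 1 control library each, at means of 7.20 and 6.74 RPM, with no reads at 6 h. The higher names let-7a-3-3p, let-7b and let-7i-5p were read in 1 library each at 6 h, at means of 6.82 to 10.1 RPM, with no control reads.

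Stress-linked names were few. miR-71-5p, of a family that extends lifespan and stress resistance in Caenorhabditis elegans, had 601 RPM at 6 h against 60.7 RPM in control, 9.90-fold higher. Its highest 6 h library held at least 725 RPM, while no control library held more than 180 RPM, and its second 6 h library could lie as low as 68.3 RPM. miR-71c-3p was read in the 69.3 M library alone, at 67.3 RPM there. miR-34b-5p and miR-210a, whose vertebrate namesake responds to hypoxia, had no reads at 6 h and were read in the 91.6 M control library alone, at 25.8 and 30.1 RPM. Of these 4 listed names 2 were higher and 2 lower, and miR-71-5p passed the stricter call. Among all listed miRNAs 56.7% were higher, and 29.5% passed that call.

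Lower names included those of miR-375, which in vertebrates controls hormone release from islet cells and marks secretory cells of the gut. miR-375-3p had 722 RPM at 6 h against 1913 RPM in control, 2.65-fold lower. The 144.9 M control library held 2344 to 3457 RPM and no 6 h library more than 1798 RPM, so 1 control library at least lay above all at 6 h. miR-375, at 722 RPM at 6 h against 1912 RPM in control, shares its reads. miR-375b-3p was 2.50-fold lower at 89.8 RPM at 6 h against 224 RPM in control, and the columns allow its groups to overlap. The other arm, miR-375-5p, went the other way at 18.0 RPM at 6 h against 7.96 RPM in control, each from the smallest library of its group, did not pass the stricter call and was lower under median scaling. miR-8, which in flies stands for the epithelial miR-200 of vertebrates, had no reads at 6 h against 69.8 RPM in control, at least 3.49-fold lower, with 122 to 151 RPM in the 144.9 M control library.

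**Figure D3:**
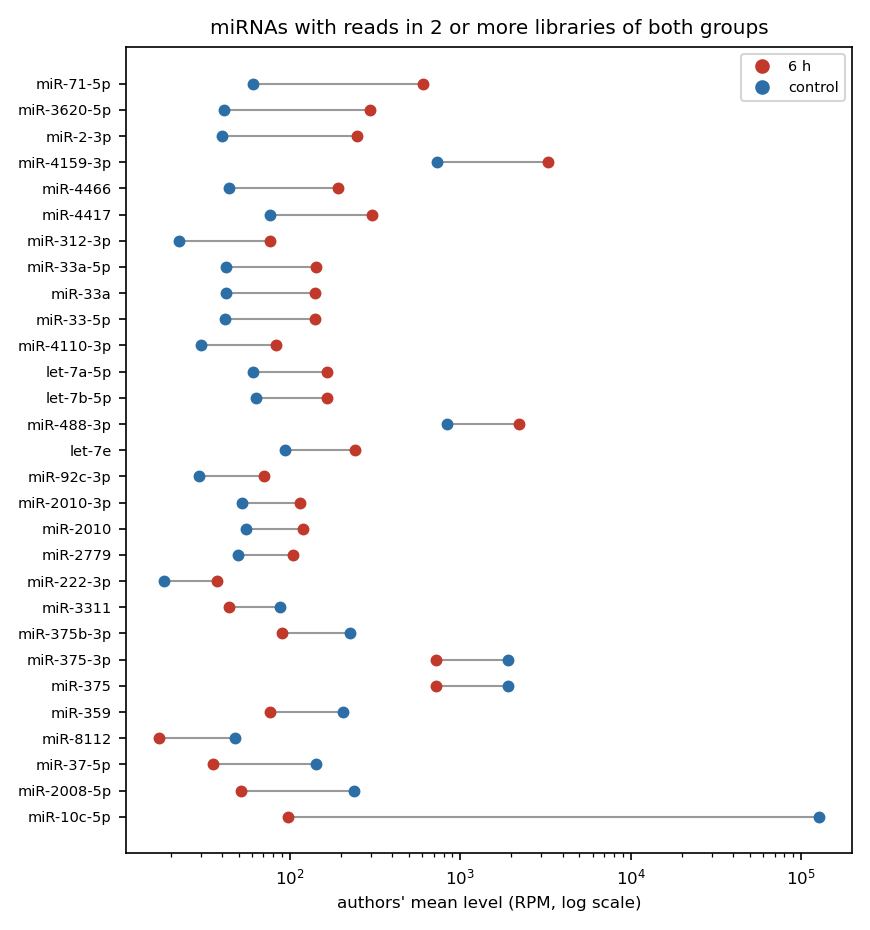
Authors' mean levels at 6 h (red) and in control (blue), in RPM on a log scale, of the 29 miRNAs found in at least 2 libraries at 6 h and at least 2 in control, ordered by their ratio. Of these 20 were higher at 6 h, by 2.05- to 9.90-fold with a median of 3.06-fold, and 9 were lower, by 1.99- to 1307-fold with a median of 2.66-fold.

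miR-33, which in vertebrates lies within the SREBP genes and represses cholesterol export, was higher under 3 names that share reads. miR-33a-5p had 142.7 RPM at 6 h against 42.4 RPM in control, 3.36-fold, and a log2 ratio of 0.053 under median scaling. Its highest 6 h library held at least 185 RPM and no control library more than 116 RPM. The opposite arm name miR-33-2-3p had no reads at 6 h and was read in the 109 M control library alone, at 303 RPM there.

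In the miR-25/92 family, which includes the nematode miR-235 and the fly miR-310 to miR-313 names, 7 listed names were higher and 1 lower. Among all listed miRNAs 56.7% were higher. The stricter call was passed by 3 higher and 1 lower name of this family, and by 29.5% of all listed miRNAs. miR-235b-3p had 284 RPM at 6 h against 14.03 RPM in control, all in the 91.6 M library, at least 10.4-fold higher on the means. Up to 96.7% of its 6 h level could lie in 1 library. Its second 6 h library could lie as low as 28.3 RPM, below the 42.1 RPM of that control library. miR-312-3p had 76.8 RPM at 6 h and 22.4 RPM in control, 3.43-fold higher, and a log2 ratio of 0.082 under median scaling. miR-92c-3p had 70.9 RPM at 6 h and 29.1 RPM in control, 2.44-fold higher, short of the stricter call and lower under median scaling. miR-92d had 65.9 RPM at 6 h and none in control, at least 3.30-fold higher. miR-235 and miR-311-3p were read in the 69.3 M library alone, at 49.2 and 27.4 RPM. miR-25 was lower at 7.12 RPM at 6 h, from the 54.4 M library alone, against 65.0 RPM in control, at least 3.18-fold, and 2 control libraries must have held 37.5 RPM or more.

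Of the echinoderm-named miRNAs 2 names were higher and 1 lower. miR-2010 and miR-2010-3p, which share reads, had 120 and 114 RPM at 6 h against 55.3 and 52.3 RPM in control, 2.17- and 2.19-fold higher. Neither passed the stricter call, both were lower under median scaling, and the columns allow their groups to overlap. miR-2008-5p was 4.62-fold lower at 51.6 RPM at 6 h against 238 RPM in control, and 485 to 639 RPM of it lay in the 91.6 M control library. Numbers tied to aestivation of this animal in earlier work had 6 listed names, all higher as deposited (3 of them lower under median scaling: the miR-2010 names and miR-92c-3p), namely the miR-2010 names, miR-92d, miR-92c-3p, miR-92b-5p and miR-252-5p. Of these, miR-92d passed the stricter call. miR-252-5p had a mean of 16.2 RPM and miR-92b-5p 8.59 RPM at 6 h, and neither had control reads. The share of all listed miRNAs that were higher was 56.7%, and 29.5% passed the stricter call.

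The miR-2 family of protostomes, which represses cell death genes in Drosophila, appeared under 2 higher names. miR-2-3p had 248 RPM at 6 h against 39.8 RPM in control, 6.24-fold (1.79-fold under median scaling), and 2 of its 6 h libraries must have held 103.3 RPM or more while no control library held more than 95.5 RPM. miR-2a had 229 RPM at 6 h and none in control, at least 11.5-fold higher, and could be even across the 6 h libraries, the least allowed coefficient of variation being 15.8%. The insect name miR-2788-3p had no reads at 6 h against 77.1 RPM in control. Nematode names counted 2 higher and 5 lower, beside 43.3% lower among all listed miRNAs. The stricter call was passed by 1 higher and 2 lower, 42.9% of these names beside 29.5% of all listed. miR-37-5p, a name of the embryonic miR-35 family of C. elegans, was 4.03-fold lower at 35.5 RPM at 6 h against 142.99 RPM in control, and miR-359 was 2.66-fold lower at 76.7 RPM at 6 h against 204 RPM in control. For miR-359 the largest library led in each group, with 207 to 215 RPM in the 96.9 M library and 525 to 554 RPM in the 144.9 M library.

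Names first given in the sea squirt Ciona, a tunicate, counted 9 higher and 6 lower, beside 56.7% higher among all listed miRNAs. The stricter call was passed by 3 higher and 2 lower of these 15 names, 33.3% beside 29.5% of all listed. On the higher side 4 of the 15 (26.7%) were found in at least 2 libraries, beside 26.2% of all listed. miR-4159-3p had the highest level of any listed miRNA at 6 h, 3280 RPM at 6 h against 726 RPM in control. It was 4.52-fold higher on the means, or 1.38-fold on pooled reads under median scaling. The 54.4 M library held 3173 to 7509 RPM, and 2 of the 6 h libraries must have held 1727 RPM or more, above the 1644 RPM that any control library can reach. miR-4005c-5p was at least 3.79-fold lower at 249 RPM at 6 h, all from the 54.4 M library at 746 RPM, against a mean of 994 RPM in control. miR-4110-3p was 2.76-fold higher at 82.5 RPM at 6 h against 29.9 RPM in control, with 201 to 231 RPM in the 54.4 M library, and lower under median scaling.

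Mammal-named miRNAs supplied several of the most abundant higher ones. miR-488-3p had 2218 RPM at 6 h against 842 RPM in control, 2.63-fold higher (lower under median scaling), with 38.3% to 97.1% of the 6 h level in 1 library. miR-493-3p, which in mammals belongs to an imprinted cluster, had 807 RPM at 6 h against 64.6 RPM in control, all in the 91.6 M library, at least 10.4-fold higher. For miR-493-3p 2 of the 6 h libraries must have held 268 RPM or more, above the 194 RPM of that control library. miR-3156-5p looked alike by its means, 904 RPM at 6 h against 151 RPM in control, but 2621 to 2653 RPM lay in the 96.9 M library and the other 6 h libraries held at most 91.0 RPM each, below the 454.2 RPM of the 91.6 M control library. miR-1587 had 380 RPM at 6 h against 37.2 RPM in control, with 768 RPM or more in the 54.4 M library. miR-4488, at 310.9 RPM at 6 h against 19.9 RPM in control, had 2 of its 6 h libraries at 177 RPM or more and 59.8 RPM in its only control library. miR-4417 had 305.6 RPM at 6 h and 76.6 RPM in control, 3.99-fold higher (1.21-fold under median scaling), miR-3620-5p 296 RPM at 6 h and 40.9 RPM in control, 7.22-fold higher, and miR-4466 192 RPM at 6 h and 44.1 RPM in control, 4.36-fold higher (1.36-fold under median scaling). miR-5126 had 243 RPM at 6 h and none in control, 435 to 625 RPM of it in the 54.4 M library. miR-222 and miR-222-3p, whose vertebrate relative represses a brake of the cell cycle, had 30.7 and 37.3 RPM at 6 h against 11.04 and 18.2 RPM in control, did not pass the stricter call and were lower under median scaling. miR-152b had 95.9 RPM at 6 h and none in control.

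Some of the highest levels belonged to 1 library. At 6 h the 54.4 M library alone held miR-5916, at 8219 RPM, and the 69.3 M library alone held miR-4520-5p at 4189 RPM, miR-3961 at 1396 RPM, miR-7471-5p at 1198 RPM and miR-4175-3p at 868 RPM. The control reads of miR-7471-5p lay mostly in the 144.9 M library, at 106.4 to 115.5 RPM. In control the 109 M library alone held miR-4653-5p at 3169 RPM and miR-7560 at 566 RPM, and the 91.6 M library alone held miR-9120 at 1132 RPM, miR-885 at 324 RPM and miR-7159-3p at 307.5 RPM, none of them with reads at 6 h. For these names the remaining 2 control libraries lay, like the 6 h libraries, below about 20 RPM. miR-194-5p, a gut and liver miRNA of vertebrates, was read in the 69.3 M library alone, at 154.9 RPM.

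By the log2 ratio of pooled reads in the authors' deposited table, miR-234, let-7d-3p and miR-1557 were nearest to 2-fold among the lower miRNAs. miR-234 had 14.8 RPM at 6 h against 28.7 RPM in control, read in 1 library of each group. miR-1557 had 33.4 RPM at 6 h against 56.1 RPM in control, where the largest library alone held it, at 168.3 RPM. In each case the means were less than 2-fold apart. miR-3311 was 1.99-fold lower at 43.9 RPM at 6 h against 87.2 RPM in control.

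Lists of names grouped by number showed a difference in how many libraries stood behind them. Families shared by bilaterian animals had 48 listed names, 25 higher and 23 lower, and 25 of the 48 (52.1%) were found in at least 2 libraries on the higher side. The other 227 listed names had 47 (20.7%), and all listed names 26.2%. With names that share reads counted once, it was 19 of 41 (46.3%) conserved and 45 of 224 (20.1%) other names. By the stricter call 10 conserved names were higher and 10 lower, 41.7% of the 48 beside 29.5% of all listed. Names numbered 3000 or above, the tunicate ones aside, counted 69 higher and 56 lower, 17 of them (13.6%) found in at least 2 libraries. Higher names made 52.1% of the conserved and 55.2% of the high-numbered names, beside 56.7% of all listed. Median levels in the higher group were 20.2 RPM for the conserved and 18.98 RPM for the high-numbered names. The median log2 ratio of means, over names with reads in both groups, was 1.28 for 21 conserved names and 1.47 for all 67. Names of one number often disagreed: of 16 numbers with 2 or more listed names, 6 had names in both directions, namely let-7, miR-9, miR-33, miR-222, miR-375 and miR-1421.

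**Figure D4:**
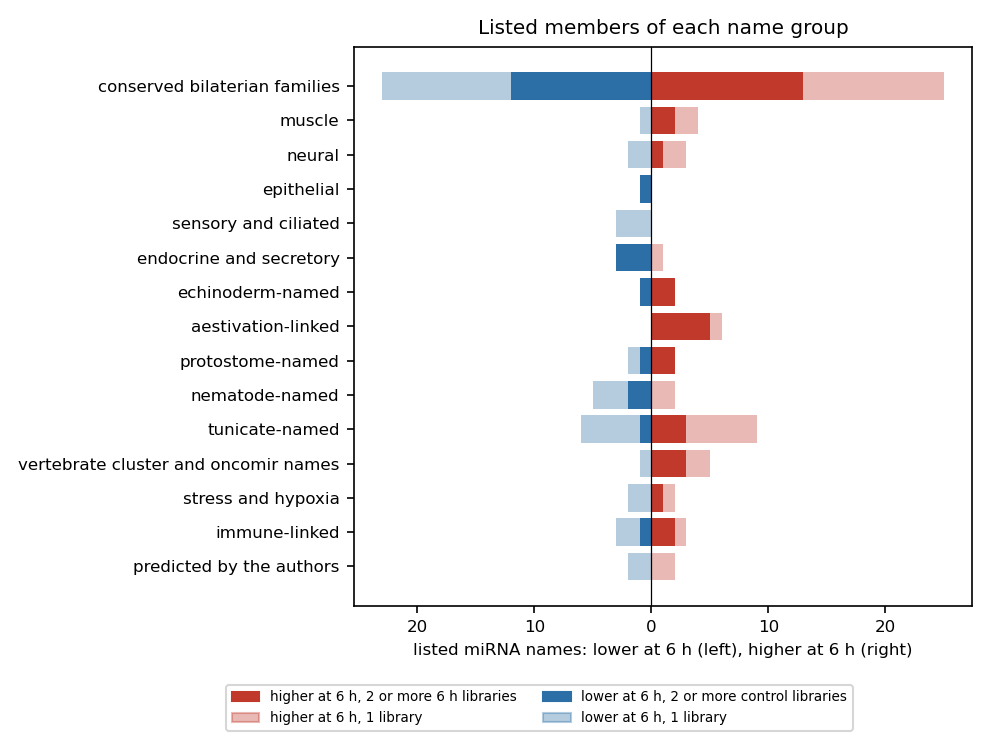
Number of listed names of each group of miRNAs that were higher at 6 h (red, right) or lower (blue, left), in full colour where at least 2 libraries of the group with more had reads and pale where 1 had. The conserved families had 25 higher and 23 lower names, and all 6 aestivation-linked names lay on the higher side, 3 of them on the lower side under median scaling.

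Muscle, neural, sensory and ciliated markers were listed at low levels. Muscle names were miR-206 and miR-206-3p, miR-143 and miR-143-3p, all higher, and miR-133-5p, lower, with group means of at most 18.8 RPM. The miR-206 names share reads, and so do the miR-143 names. Counted once, 2 were higher and 1 lower, beside 56.7% higher among all listed names. Neural names were miR-79-3p, miR-9a-1-3p and miR-9b, higher, and miR-9-4-3p and miR-153-5p, lower, at means of at most 37.3 RPM. The sensory and ciliated names miR-96-3p, miR-263a-3p and miR-34b-5p were read in 1 control library each and had no reads at 6 h. None of these passed the stricter call, and 0 names of vertebrate blood and immune cells were listed. Their part in the differences above was not tested. The table lists differing miRNAs only, so the intestinal identity of the samples could not be checked from it. Vertebrate cluster and oncomir names counted 5 higher and 1 lower, beside 56.7% higher among all listed, with miR-222 and miR-222-3p lower under median scaling. Of the 6 names 1 passed the stricter call, beside 29.5% of all listed. As deposited, immune-linked numbers counted 3 higher and 3 lower and protostome names 2 and 2. Of 4 miRNAs predicted by the authors, novel_mir_97 passed the stricter call, with 277.2 RPM in the 91.6 M control library and no reads elsewhere.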

How the data were processed

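Small RNA of 18 to 30 nt was gel-selected from intestine RNA, given adapters and read by HiSeq, per the labels' protocols. No source used here tells how reads were trimmed, matched or counted (not stated). Pooled values only were deposited: the authors give 1 read count per miRNA and group, pooled over 3 libraries. The authors' expression value behaves as a mean RPM over 3 libraries, with 0.001 for a library at 0. The authors' log2 ratio is that of pooled counts over pooled totals, with 0.5 for a count of 0, and their p-values and q-values come from an unnamed test, with 196 p-values entered as 0. The design called for a count test per library where the table allowed it. It does not, so the authors' q-value under 0.05 was the call.

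Library totals were recovered from counts and means with Python 3.11.15 (pandas 2.3.3, NumPy 2.4.6, SciPy 1.17.1), tested on simulated data. The sums of these totals differed by 0.0128% from the constant in the authors' log2 ratios. Levels per library were bounded from count and mean. For miRNAs read in 2 or more libraries, the level in the library of middle total can be bounded from above only. Folds are ratios of the authors' means, other than those under median scaling, which come from the authors' log2 ratios of pooled reads. Against a group at 0 they are the mean divided by 20 RPM, and where 1 library had reads the rest of that group counted as 20 RPM, both written "at least". The stricter call set libraries of the lower group that could lie below 20 RPM to 20, taking 1 such library where reads came from 2 or more. Names of one number with counts within 15% in both groups were taken to share reads. Control counts were the same in the table for 48 h for all 156 names in both tables.

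Named miRNAs were, per direction, the 12 highest by mean RPM with reads in 2 or more libraries, the 5 highest with reads in 1, the 3 nearest to 2-fold, and up to 6 per list of numbers. The members, the lists and this rule were chosen with earlier results of these data known. miR-1386, miR-194-5p, miR-2a, miR-25, let-7c-3p, let-7e, miR-33a-5p, miR-4466 and the other names outside this rule were added after their values were seen. No miRNA sequences were used here.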

Additional observations from a re-analysis of the deposited data

How the results depend on the processing

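The counts of 156 higher and 119 lower miRNAs changed by over 1.5 times under several choices. With ratios of the authors' means and 20 RPM in place of 0 they were 68 and 29, with a 50 RPM minimum on the higher side 54 and 28, with at least 2 libraries on that side 47 and 25, and by the stricter call 52 and 29. Without the library with the most, an alternative chosen after seeing the data, 3 to 23 higher and 3 to 12 lower met the stricter call. Without the miRNAs read in 1 given library alone, 67.9% to 92.9% of the higher and 55.5% to 90.8% of the lower ones were left, 55.5% being without those of the 91.6 M control library. Conserved families counted 10 higher and 10 lower by the stricter call, against 25 and 23 as deposited. Scaling to the median of the listed miRNAs with reads in both groups was a log2 shift of -1.65. It put let-7e, the median itself, at 0. Unlisted miRNAs had no part in this median, and most listed ones with reads in both groups were higher, so some had to turn sign. It turned the sign of 5 miRNAs outside the naming rule and of 8 within it, miR-488-3p (-0.36), miR-2010 (-0.63), miR-2010-3p (-0.62), miR-375-5p (-0.58), miR-92c-3p (-0.56), miR-4110-3p (-0.48), miR-222-3p (-0.48) and miR-222 (-0.027). It put 6 more of the 79 named miRNAs under 2-fold, namely miR-4159-3p (0.47), miR-4417 (0.27), miR-2-3p (0.84), miR-4175-3p (0.64), miR-79-3p (0.28) and miR-4009c-3p (0.46). Others outside the naming rule also fell under 2-fold, such as miR-3488 (0.71) and miR-4466 (0.44). After median scaling 122 higher and 119 lower miRNAs were left. Most of these counts could not fall under this shift. Of the higher ones left, 109 had no control reads, and their log2 ratios rest on 0.5 in place of a count of 0. The shift was negative, so it moved every lower miRNA further down. Leaving the 5 most abundant listed miRNAs out of the totals shifted log2 ratios by -0.23 and put 6 of 79 named miRNAs under 2-fold. Unlisted miRNAs, whatever their level, could not be left out. No paired analysis was possible because the table holds 1 pooled value per group. Leaving out a whole library, for miRNAs with reads in more, was possible only as bounds.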
